A study of Caenorhabditis elegans with 16 samples.

Results

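The genes described here encode chaperones and folding enzymes of Caenorhabditis elegans. They were chosen by name: the HSP70, HSP60 and HSP110 genes hsp-1, hsp-6, hsp-60, hsp-70 and hsp-110, the subunits of the chaperonin CCT (cct), the subunits of prefoldin (pfd), the J proteins (dnj), the cyclophilins (cyn) and the FK506-binding proteins (fkb). That made 72 genes of 42048 genes and other loci in the tables, with 5 hsp, 8 cct, 6 pfd, 29 dnj, 16 cyn and 8 fkb members. A further name in the rule, hsp-90, is listed in the tables only under its older name daf-21, and daf-21 is therefore given beside the members and not counted among them. The rule uses names only, but it was set with earlier results of these data known.

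RNA came from whole bodies on adult day 1, from 4 libraries in each of 4 groups. The first group carries a glp-1 mutation in the TU3401 background (strain SHU47) and was fed mml-1 RNAi, the second is the same strain on mxl-2 RNAi, and the third is the same strain on the RNAi the labels call Luc, called the glp-1 control here. The fourth is TU3401 on Luc RNAi, without a glp-1 mutation in its label, called TU3401 here. As known from the field, glp-1 encodes the Notch receptor that keeps germline stem cells dividing, so that mutants lack most of the germline, and TU3401 takes up feeding RNAi mainly in neurons. All 4 groups share that background, and any knockdown is therefore mainly neuronal in a whole-body sample. MML-1, a Mondo-type factor, binds DNA together with MXL-2, its Mlx-type partner. The glp-1 allele and the temperature at which germline loss was induced are not given in the labels.

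Chaperones bind unfolded or partly folded proteins and keep them from clumping. HSP70 proteins do so in cycles driven by ATP; J proteins deliver clients to HSP70 and start the cycle, and HSP110 proteins reset it by releasing the spent nucleotide. CCT is a closed double ring that folds actin and tubulin, which prefoldin hands over to it. Cyclophilins and FK506-binding proteins speed the turning of peptide bonds before proline. In the worm the oocytes grow within the adult germline, while somatic cells of the adult no longer divide.

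The name of the set, cytosolic chaperones, does not cover all of its members. As background, hsp-6, hsp-60, dnj-10 and dnj-21 have their known place in mitochondria, and dnj-7, dnj-20, dnj-27, dnj-29, cyn-5, cyn-6, fkb-3, fkb-4 and fkb-5 in the endoplasmic reticulum or secretory pathway. All 72 symbols were found in Ensembl's WBcel235 annotation. They lie on all 6 chromosomes, with 16 on I, 15 on II, 13 on III, 12 on IV, 13 on V and 3 on X. The coding lengths recovered from the values ran from 327 to 2842 bases, and 65 equal an annotated coding length.

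Values are RPKM, reads divided by gene length and by library total, so levels of different genes may be set side by side. The libraries held 18818680 to 27228111 reads, recovered from the deposited values, and a single read of a 1 kb gene stood for 0.0367 to 0.0531 RPKM. Reads carry no molecular identifiers, and intervals or floors from reads cover counting error only. The labels do not say whether libraries came from separate cultures, and p-values measure the spread between these libraries, which may be technical. Reads of the knocked-down genes were not lower on average in the libraries labelled with them. mml-1 had 23.8, 91.5, 28.9 and 22.9 RPKM with mml-1 RNAi, beside 35.2, 23.95, 11.9 and 11.2 RPKM in control libraries. mxl-2 had 29.3, 90.7, 733 and 47.4 RPKM with mxl-2 RNAi, beside 24.5, 30.3, 20.99 and 22.9 RPKM in control libraries, and 1 library labelled mml-1 RNAi had 308 RPKM of mxl-2. Directions below are therefore those of libraries labelled with a knockdown.

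Replicate 1 stood apart for several chaperones in all 3 germline-less groups. Of 69 members with a mean of at least 1 RPKM in those groups, 10 were above, and 18 below, the other 3 replicates in each of the 3 groups, beside 7.61% and 17.3% of 12558 features. The 10 were hsp-1, hsp-6, hsp-70, hsp-110, cct-5, cct-6, dnj-13, dnj-19, fkb-5 and fkb-6. The 18 were cct-3, pfd-3, pfd-5, dnj-7, dnj-9, dnj-15, dnj-16, dnj-17, cyn-3, cyn-7, cyn-11, cyn-12, cyn-13, fkb-1, fkb-3, fkb-4, fkb-7 and fkb-8. For hsp-1, hsp-6, hsp-70, hsp-110, dnj-7, dnj-13, dnj-19 and fkb-5 the difference between the glp-1 control and TU3401 is given with and without replicate 1. For cct-5, cct-6, fkb-6 and the rest of the 18 it is given with all libraries only.

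**Figure D1:**
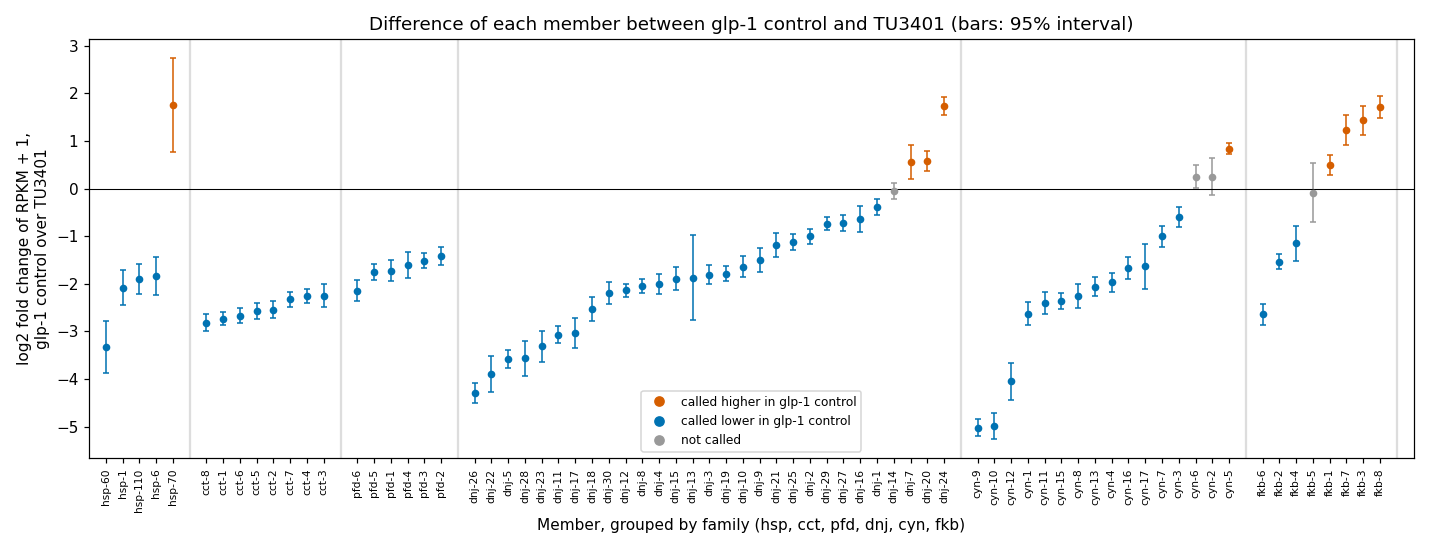
Log2 fold change of RPKM + 1 in the glp-1 control over TU3401 for each of the 72 members, ordered within families (vertical axis: log2 units; points: limma estimates from 4 libraries a group; bars: 95% intervals; orange called higher, blue called lower, grey not called). Of the 72 members, 59 lie below 0 with a call and 9 above it, and the CCT subunits form the tightest family at -2.82 to -2.25.

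The glp-1 control was compared with TU3401 to see how the chaperone genes differ between worms without and with a germline. A gene was called at a Benjamini-Hochberg adjusted p under 0.05 over all features in limma on log2(RPKM + 1), a scale that understates the change of low genes. Of the 72 members, all of them tested, 59 were lower and 9 higher in the glp-1 control, and 4 were not called. Over all 13563 features tested 46.1% were called lower and 41.5% higher. At a change of at least 2-fold, 54 members were lower and 5 higher, beside 37.5% and 28.3% of features. The ranges of the 2 groups did not overlap for 67 members, and for 83.4% of features. The median log2 fold change was -1.85 over the members and -0.06 over all features tested.

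Summed over the members, the glp-1 control held 6402 ± 159 RPKM and TU3401 14406 ± 504 RPKM (SD, n = 4 each), 2.25 times as much. The families differed in size of change. By sums, the glp-1 control held 501 RPKM of hsp, 327 of cct, 274 of pfd, 915 of dnj, 3389 of cyn and 996 of fkb genes, against 2143, 1909, 915, 2373, 5347 and 1719 RPKM in TU3401, in the same order. CCT had the widest gap at 5.83 times and cyclophilins the narrowest at 1.58 times. cyn-7 alone made up 49.2% of the cyclophilin sum in the glp-1 control and 62.2% in TU3401.

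These are whole-body samples, in which fewer cells of a type and less RNA per cell cannot be told apart. The 16 germline and oocyte markers, all of them lower in the glp-1 control, summed to 18.8 to 29.8 RPKM there, against 9559 to 9945 RPKM in TU3401; 1 marker was at 0 in the glp-1 control. Summed muscle markers stood at 2191 to 2395 RPKM in the glp-1 control, against 569 to 635 RPKM in TU3401, and neuron markers at 689.7 to 889 RPKM, against 584 to 640.1 RPKM. All 8 muscle markers were called higher, and of the 8 neuron markers 6 were higher and 1 lower. The sums for other somatic tissues hide markers that went the other way. Intestine markers (7 of 8 were in the files, 4 of them called higher and 1 lower) stood at 752 to 1289.7 RPKM in the glp-1 control, against 651 to 688 RPKM in TU3401. The 7 hypodermis markers summed to 833 to 1147 RPKM in the glp-1 control, against 324 to 506 RPKM in TU3401, but of the 5 tested 2 were higher and 3 lower, with a median log2 fold change of -2.90. The 6 somatic gonad markers, 5 higher and 1 lower, summed to 305 to 337 RPKM in the glp-1 control, against 151 to 172 RPKM in TU3401. Early embryo markers summed to 9.76 to 19.7 RPKM in the glp-1 control, against 21.7 to 33.3 RPKM in TU3401. Of these 7 markers 5 were tested, with 4 lower and 1 higher, and 4 were at 0 in the glp-1 control. The 5 sperm markers summed to 3.16 to 5.02 RPKM in the glp-1 control, against 3.80 to 4.57 RPKM in TU3401. The part of these tissue shares in the differences of the members was not tested.

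In the cytosol, hsp-1, hsp-110 and their J proteins dnj-12, dnj-13 and dnj-19 all fell, and hsp-70 rose. hsp-1, the main cytosolic HSP70 (chromosome IV, 17278959 to 17281330), had 515, 296, 290.3 and 265 RPKM on mml-1 RNAi, 489, 241, 261 and 235.5 RPKM on mxl-2 RNAi and 457, 272, 304 and 294 RPKM in the glp-1 control, against 1458, 1224, 1322 and 1529.8 RPKM in TU3401. Every germline-less library lay below every TU3401 library, and within each germline-less group replicate 1 was the highest. hsp-1 fell 4.17-fold by mean RPKM (log2 fold change -2.08, SE 0.16, adjusted p = 1.49e-06), and without replicate 1 of either group the log2 fold change was -2.22 (adjusted p = 1.02e-06).

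hsp-110, the partner that releases nucleotide from HSP70, had 70.7, 47.0, 48.25 and 46.4 RPKM in the glp-1 control, against 207, 179, 195 and 215 RPKM in TU3401. All 4 glp-1 control libraries were lower, with replicate 1 nearest to TU3401 (log2 fold change -1.91, SE 0.14, adjusted p = 1e-06). Without replicate 1 of either group the log2 fold change was -2.03 (adjusted p = 6.79e-07). The ratio of hsp-110 to hsp-1 was 0.161 ± 0.00809 in the glp-1 control and 0.144 ± 0.00348 in TU3401 (SD, n = 4 each).

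dnj-12 and dnj-19, the class A J proteins of the cytosol, were the most abundant J proteins of TU3401. dnj-12 had 65.8, 65.4, 67.0 and 69.1 RPKM in the glp-1 control, against 289, 294, 298 and 309 RPKM in TU3401, and dnj-19 had 78.6, 77.9, 74.2 and 78.1 RPKM in the glp-1 control, against 249, 268, 268 and 291 RPKM in TU3401. Neither showed overlap, with falls of 4.45-fold and 3.49-fold by mean RPKM and adjusted p of 1.02e-09 and 8.71e-09. The log2 fold change of dnj-19 was -1.79 with all libraries and -1.83 without replicate 1 of either group (adjusted p = 3.87e-07).

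dnj-13, the class B J protein (a relative of the human DNAJB1; chromosome II, 11545701 to 11547360), varied widely within the germline-less groups. It had 116, 29.9, 27.3 and 31.3 RPKM on mml-1 RNAi, 109, 30.3, 25.2 and 27.2 RPKM on mxl-2 RNAi and 131, 32.8, 37.96 and 43.0 RPKM in the glp-1 control, against 223, 169, 183 and 193 RPKM in TU3401. In each germline-less group replicate 1 lay between TU3401 and the other 3 replicates, which were close together. The fall against TU3401 passed with all libraries (log2 fold change -1.87, SE 0.39, adjusted p = 0.00151), and without replicate 1 of either group it was larger and its error smaller (log2 fold change -2.24, SE 0.11, adjusted p = 1.80e-06). Across the 5 genes of the cytosolic HSP70 system (hsp-1, hsp-110, dnj-12, dnj-13, dnj-19), a grouping made after their values were seen, the log2 fold changes ran from -2.14 to -1.79.

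hsp-70, the heat-inducible cytosolic HSP70 (chromosome I, 9320325 to 9322519), went the other way. It had 14.0, 7.98, 7.64 and 3.11 RPKM on mml-1 RNAi, 12.1, 4.49, 6.66 and 2.88 RPKM on mxl-2 RNAi and 23.5, 5.22, 6.56 and 4.64 RPKM in the glp-1 control, against 1.60, 1.60, 2.27 and 1.23 RPKM in TU3401. Every germline-less library lay above every TU3401 library, although the levels in TU3401 were the lowest of any member there. Replicate 1 was again the highest of each germline-less group. hsp-70 rose 5.96-fold by mean RPKM (log2 fold change 1.76, SE 0.43, adjusted p = 0.00398). Without replicate 1 the glp-1 control averaged 5.47 RPKM, and without replicate 1 of either group the log2 fold change was 1.27 (adjusted p = 0.000552). Other HSP70 genes of the heat shock response have closely related sequence, and reads may have been shared among them.

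**Figure D2:**
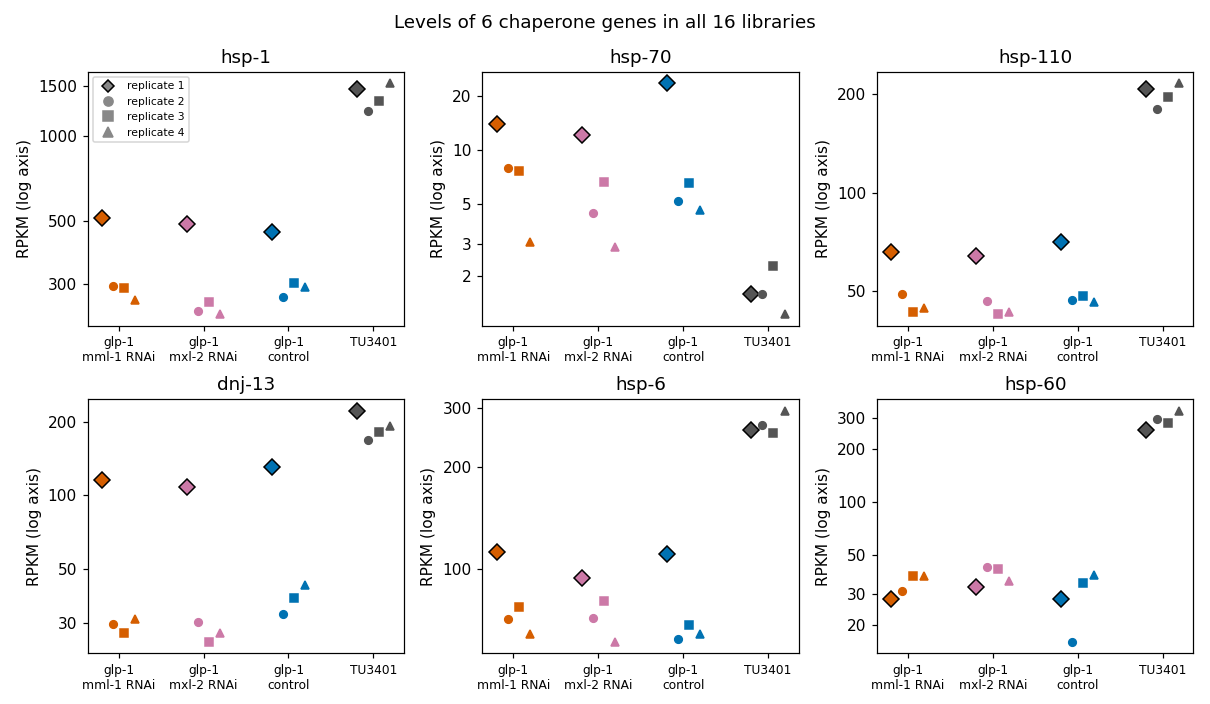
RPKM (log axis) of hsp-1, hsp-70, hsp-110, dnj-13, hsp-6 and hsp-60 in all 16 libraries, by group and with a symbol for each replicate number (outlined diamonds: replicate 1). In dnj-13 the replicate 1 libraries of the germline-less groups stand at 109 to 131 RPKM and the others at 25.2 to 43.0 RPKM, while TU3401 lies at 169 to 223 RPKM.

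The mitochondrial chaperones fell as well. hsp-6, the mitochondrial HSP70, had 111, 62.5, 68.6 and 64.4 RPKM in the glp-1 control, against 258, 267, 252 and 294 RPKM in TU3401, and hsp-60, the mitochondrial chaperonin, had 28.3, 16.2, 34.7 and 38.6 RPKM in the glp-1 control, against 257, 296, 280.2 and 329 RPKM in TU3401. All glp-1 control libraries were lower for both genes, but hsp-60 fell 9.87-fold and hsp-6 3.496-fold (log2 fold change -3.32, SE 0.24, adjusted p = 1.09e-06 for hsp-60, and log2 fold change -1.83, SE 0.17, adjusted p = 6.82e-06 for hsp-6). Without replicate 1 of either group the log2 fold change of hsp-6 was -2.04 (adjusted p = 6.27e-07). hsp-6 was 3.92, 3.86, 1.98 and 1.67 times hsp-60 in replicates 1 to 4 of the glp-1 control, against 1.00, 0.903, 0.899 and 0.894 times in TU3401. In replicate 2 of the glp-1 control the high ratio came with the lowest hsp-60 level, and in replicate 1 with the highest hsp-6 level. dnj-10, a relative of the human mitochondrial J protein DNAJA3, fell to 12.8 ± 1.46 RPKM in the glp-1 control, against 42.1 ± 3.09 RPKM in TU3401. dnj-21, whose yeast relative is part of the motor that pulls proteins into the matrix, fell to 21.2 ± 3.08 RPKM, against 49.5 ± 4.23 RPKM (SD, n = 4 each).

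All 8 CCT subunits fell, beside 46.1% of all features called lower. Their mean RPKM in TU3401 was 4.81 to 7.30 times that in the glp-1 control, and their log2 fold changes had a median of -2.56 and an SD of 0.22 over subunits. No subunit overlapped between the groups, nor did 83.4% of all features. cct-5, the most abundant subunit in both groups (chromosome III, 4499188 to 4508114), had 68.6, 62.8, 58.8 and 64.2 RPKM in the glp-1 control, against 400.0, 363, 359.6 and 409 RPKM in TU3401. cct-6, next in TU3401, had 42.5, 37.6, 38.3 and 39.4 RPKM in the glp-1 control, against 248, 254, 251 and 274 RPKM in TU3401. cct-3, next in the glp-1 control, had 35.9, 49.3, 44.7 and 48.4 RPKM in the glp-1 control, against 213, 201, 209 and 234 RPKM in TU3401.

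cct-8 was the least abundant subunit of both groups. It fell to 24.6 ± 1.88 RPKM in the glp-1 control, against 179 ± 11.4 RPKM in TU3401 (SD, n = 4 each), and had the largest fall of the 8 (log2 fold change -2.82, SE 0.08, adjusted p = 1.27e-09). The most abundant subunit exceeded the least abundant 2.59-fold in the glp-1 control and 2.14-fold in TU3401, the narrowest spread of levels of any family here apart from prefoldin. The summed level varied little between libraries, at 321, 329, 323 and 336 RPKM in the glp-1 control, against 1962, 1817, 1838 and 2019 RPKM in TU3401.

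All 6 prefoldin subunits fell too, beside 46.1% of all features called lower. Their falls were 2.72-fold to 4.48-fold, with a median log2 fold change of -1.67. pfd-6 had 43.6, 39.2, 49.1 and 52.1 RPKM in the glp-1 control, against 200.3, 199, 204 and 222 RPKM in TU3401, the largest fall (log2 fold change -2.15, SE 0.10, adjusted p = 3.08e-08). pfd-1, the most abundant subunit in the glp-1 control, had 50.9, 55.3, 59.0 and 68.2 RPKM in the glp-1 control, against 189, 191, 189 and 206 RPKM in TU3401. Neither overlapped between the groups. The mean level of CCT subunits over that of prefoldin subunits was 0.966, 0.957, 0.867 and 0.815 in the glp-1 control, against 1.65, 1.51, 1.53 and 1.57 in TU3401, so the ratio was below 1 in every glp-1 control library and above 1 in every TU3401 library. The intervals of the smallest CCT fall (cct-3, -2.49 to -2.003) and the largest prefoldin fall (pfd-6, -2.37 to -1.93) overlap on the log2 scale.

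**Figure D3:**
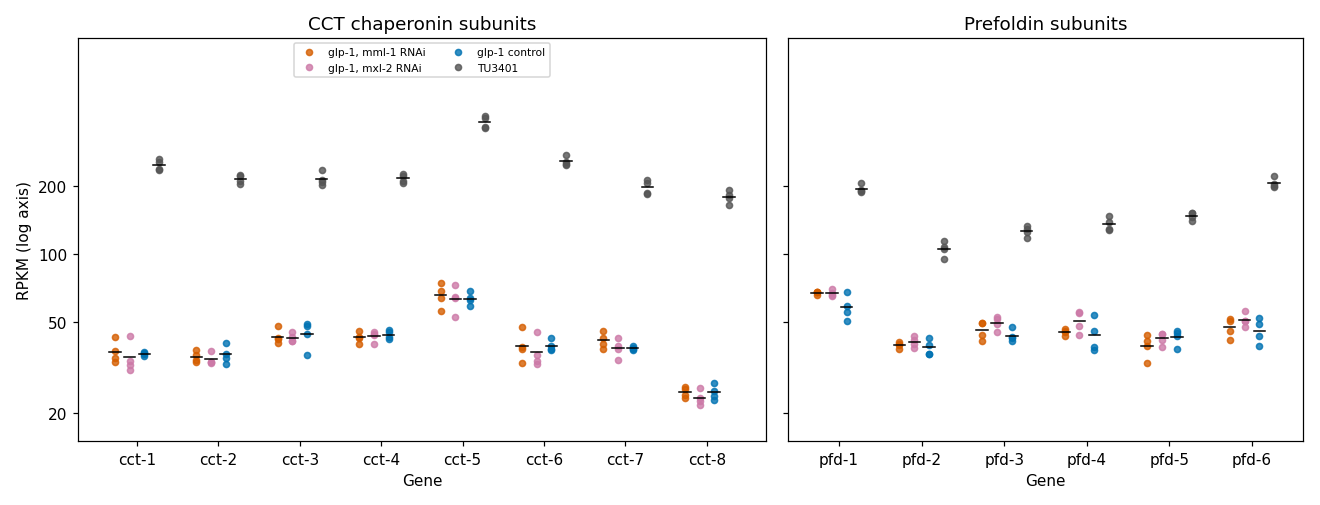
RPKM (log axis) of the 8 CCT and 6 prefoldin subunits in the 16 libraries (points: libraries; black bars: group means; orange mml-1 RNAi, pink mxl-2 RNAi, blue glp-1 control, grey TU3401). For every subunit the ranges of both knockdowns overlap that of the glp-1 control, and TU3401 lies 4.81 to 7.30 times above the glp-1 control for CCT and 2.72 to 4.48 times for prefoldin.

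The actin and tubulin genes, the classical clients of CCT and prefoldin, were called in both directions, at shares near those of all features. Of 21 genes, 17 were tested, of which 6 were higher and 8 lower in the glp-1 control, beside 41.5% and 46.1% of all features. act-2 fell to 205 ± 15.8 RPKM in the glp-1 control, against 1250.5 ± 85.8 RPKM in TU3401, and tba-1 to 136 ± 8.73 RPKM, against 683 ± 21.7 RPKM. tbg-1, the gamma tubulin of centrosomes, fell to 5.88 ± 0.644 RPKM, against 90.5 ± 2.45 RPKM. act-4, an actin of muscle, rose to 1596 ± 99.3 RPKM, against 528 ± 31.7 RPKM, and mec-12, the alpha tubulin of touch neurons, to 21.4 ± 0.627 RPKM, against 8.37 ± 0.680 RPKM (SD, n = 4 each). The actins are near-identical in sequence and their separate levels are uncertain; act-1 and act-3 are listed at 0 in all 16 libraries.

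Among the 29 J proteins, 25 fell, 3 rose and 1 was not called, with log2 fold changes from -4.30 to 1.74. Over all features 46.1% were called lower and 41.5% higher. dnj-26 (chromosome IV, 12251093 to 12252679) was close to absent without a germline. It had 0, 0.117, 0 and 0 RPKM in the glp-1 control, against 18.3, 20.4, 17.96 and 20.2 RPKM in TU3401, which is 3 reads over the 4 glp-1 control libraries and 1918 in TU3401. TU3401 therefore held 675 times as many, with a 95% exact interval of 231 to 3276 for counting error. Neither knockdown group had a read, and 3 reads over a group would be 0.0302 RPKM on mml-1 RNAi and 0.0307 RPKM on mxl-2 RNAi.

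dnj-22 had 3.21, 5.35, 4.46 and 6.68 RPKM in the glp-1 control, against 89.2, 91.4, 79.0 and 82.9 RPKM in TU3401. dnj-5 had 14.997, 16.3, 12.8 and 13.6 RPKM in the glp-1 control, against 182, 196, 176 and 179 RPKM in TU3401. dnj-28 had 1.30, 2.23, 2.22 and 3.19 RPKM in the glp-1 control, against 35.7, 39.4, 35.7 and 35.3 RPKM in TU3401. All 3 were lower in every glp-1 control library, by 17.4-fold, 12.7-fold and 16.4-fold of mean RPKM. dnj-23, a relative of the human DNAJC9, which handles histones, had 11.7, 19.1, 13.04 and 11.7 RPKM in the glp-1 control, against 139, 151, 142 and 145 RPKM in TU3401. dnj-11, a relative of the ribosome-bound human DNAJC2, had 17.6, 14.2, 16.8 and 17.4 RPKM in the glp-1 control, against 143, 149, 141 and 149.5 RPKM in TU3401. Both lay far below TU3401 in every library, with log2 fold changes of -3.31 and -3.07 (adjusted p = 2.55e-08 and 7.89e-10).

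dnj-24 (chromosome III, 5415583 to 5424083) rose most of the J proteins. It had 62.5, 58.7, 58.9 and 67.5 RPKM in the glp-1 control, against 18.8, 17.95, 18.8 and 15.7 RPKM in TU3401. The groups stood well apart, 3.48-fold by mean RPKM (log2 fold change 1.74, SE 0.08, adjusted p = 4.31e-08). dnj-24 was 0.926 ± 0.0450 times the level of dnj-12 in the glp-1 control and 0.0600 ± 0.00643 times in TU3401 (SD, n = 4 each).

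The other rises were smaller. dnj-20, a relative of the J protein DNAJB11 of the endoplasmic reticulum and the most abundant J protein of the glp-1 control, had 165, 205, 154 and 158 RPKM in the glp-1 control, against 109, 114.9, 114.7 and 112 RPKM in TU3401. All its glp-1 control libraries were above TU3401 (log2 fold change 0.58, SE 0.09, adjusted p = 0.000305). dnj-7, a relative of the endoplasmic reticulum protein DNAJC3, had 40.6, 63.0, 61.5 and 69.7 RPKM in the glp-1 control, against 34.5, 40.4, 42.2 and 37.8 RPKM in TU3401. Replicate 1 of the glp-1 control lay within the TU3401 range and the 3 others above it (log2 fold change 0.56, SE 0.16, adjusted p = 0.00827). Without replicate 1 of either group the limma log2 fold change of dnj-7 was 0.68 (adjusted p = 0.000178).

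dnj-14, the cysteine string protein of synaptic vesicles, was the 1 J protein without a call. It had 42.5, 51.3, 50.1 and 50.9 RPKM in the glp-1 control, against 49.2, 51.0, 50.1 and 50.01 RPKM in TU3401, with overlapping ranges (log2 fold change -0.04, 95% interval -0.21 to 0.13, adjusted p = 0.591). As log2 fold changes, modest falls came from dnj-1 (-0.39), dnj-16 (-0.64) and dnj-27, a relative of the disulfide reductase ERdj5 (-0.72). Another came from dnj-29, the SEC63 of the translocation channel (-0.74). Under quantile scaling, limma called dnj-1, dnj-14 and dnj-27 higher instead (adjusted p = 0.000745, 2.91e-06 and 0.0339). dnj-16 then stood above 0 without a call. The fall of dnj-1 was not under an FDR of 0.05 in the authors' deposited table, which gives it a log2 fold change of -0.23 and an FDR of 0.292; the 67 members called there were all called here. dnj-25, the auxilin that uncoats clathrin vesicles, fell to 18.1 ± 0.978 RPKM in the glp-1 control, against 40.6 ± 2.21 RPKM in TU3401 (SD, n = 4 each).

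Of the 16 cyclophilins, 13 fell, 1 rose and 2 were not called, beside 46.1% of all features called lower and 41.5% higher. cyn-9 (chromosome III, 3697821 to 3699640) had 0.505, 0.462, 0.500 and 0.474 RPKM in the glp-1 control, against 51.1, 46.7, 45.8 and 45.8 RPKM in TU3401, a fall second to that of dnj-26 by mean RPKM and the largest on the log2(RPKM + 1) scale (log2 fold change -5.02, SE 0.08, adjusted p = 3.7e-11). cyn-10 (chromosome II, 6912540 to 6913365), a relative of the human spliceosome protein PPIL3, had 2.87, 1.93, 1.81 and 2.77 RPKM in the glp-1 control, against 100.2, 102, 105 and 109.96 RPKM in TU3401. Both were low in all 4 glp-1 control libraries, 97.7-fold and 44.5-fold under TU3401.

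cyn-12, a relative of the spliceosome protein PPIL1, had 3.22, 6.396, 6.46 and 5.91 RPKM in the glp-1 control, against 107, 100.5, 102 and 106 RPKM in TU3401. cyn-11, a relative of PPIH, had 10.5, 11.4, 14.3 and 13.3 RPKM in the glp-1 control, against 64.4, 73.8, 68.7 and 72.7 RPKM in TU3401. cyn-15, a relative of PPWD1, had 7.08, 8.08, 8.003 and 8.22 RPKM in the glp-1 control, against 47.9, 43.8, 43.3 and 42.7 RPKM in TU3401. None overlapped between groups. With cyn-10 and with cyn-13 and cyn-16, the relatives of the human PPIE and CWC27, they form a group of 6 cyclophilins with spliceosomal relatives. All 6 were lower, beside 46.1% of all features, with log2 fold changes of -4.99 to -1.67. They were grouped after their values were seen, and the group may not hold every cyclophilin with such a relative.

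cyn-1 had 27.2, 24.2, 31.9 and 33.3 RPKM in the glp-1 control, against 186, 174, 177 and 199 RPKM in TU3401, without overlap (log2 fold change -2.63, SE 0.11, adjusted p = 1.57e-08). cyn-4, a cyclophilin with a U-box that in the worm acts in the germline's switch between sperm and oocytes (mog-6), fell to 12.8 ± 1.41 RPKM in the glp-1 control, against 52.9 ± 1.10 RPKM in TU3401 (SD, n = 4 each). cyn-17 was low throughout, with 0.139, 0.127, 0.125 and 0.273 RPKM in the glp-1 control, against 4.62, 2.101, 2.37 and 1.90 RPKM in TU3401; its fall passed the test (log2 fold change -1.63, SE 0.21, adjusted p = 5.79e-05).

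The most abundant cyclophilins moved apart. cyn-7, a small cytosolic cyclophilin of the cyclophilin A type and the most abundant of all members, had 1361, 1730.1, 1814 and 1767 RPKM in the glp-1 control, against 3240.4, 3383, 3164 and 3506 RPKM in TU3401. Every glp-1 control library was lower, about 1.99-fold by mean RPKM (log2 fold change -1.002, SE 0.10, adjusted p = 8.09e-06). cyn-5, a cyclophilin of the secretory pathway (chromosome I, 15040474 to 15041274), had 1183, 1224, 1173 and 1135 RPKM in the glp-1 control, against 647, 669, 658 and 653 RPKM in TU3401. Here every glp-1 control library was higher (log2 fold change 0.84, SE 0.05, adjusted p = 4.01e-07). cyn-5 therefore stood at 0.869, 0.707, 0.647 and 0.642 times cyn-7 in the glp-1 control, against 0.200, 0.198, 0.208 and 0.186 times in TU3401.

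cyn-6, the other secretory cyclophilin, had 83.3, 79.0, 83.7 and 84.2 RPKM in the glp-1 control, against 58.8, 62.5, 81.7 and 76.0 RPKM in TU3401. Its ranges overlapped and it missed the threshold (log2 fold change 0.25, 95% interval 0.01 to 0.50, adjusted p = 0.0512); with the replicate number as a block it passed it (adjusted p = 0.0387). cyn-2, a close relative of cyn-3 and cyn-7, had 5.34, 4.88, 4.31 and 3.82 RPKM in the glp-1 control, against 4.91, 2.97, 4.44 and 2.69 RPKM in TU3401, again with overlap (95% interval -0.14 to 0.65, adjusted p = 0.197). cyn-3 fell to 345 ± 39.3 RPKM, against 518 ± 26.97 RPKM (SD, n = 4 each). Reads of cyn-2, cyn-3 and cyn-7 may be split among these similar genes, and their separate levels are uncertain.

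Of the 8 FK506-binding proteins, 4 rose, 3 fell and 1 was not called, with a median log2 fold change of 0.20, beside 41.5% of all features called higher and 46.1% lower. fkb-8 had 39.4, 42.8, 44.0 and 45.3 RPKM in the glp-1 control, against 10.1, 13.8, 12.2 and 13.4 RPKM in TU3401. fkb-3, of the endoplasmic reticulum, had 73.6, 74.0, 96.9 and 97.9 RPKM in the glp-1 control, against 26.3, 29.2, 34.8 and 33.3 RPKM in TU3401. fkb-7 had 18.3, 25.3, 24.3 and 28.1 RPKM in the glp-1 control, against 9.11, 9.72, 11.1 and 8.28 RPKM in TU3401. All 3 lay above TU3401 in every glp-1 control library, with rises of 3.47-fold, 2.77-fold and 2.51-fold by mean RPKM and adjusted p of 2.17e-07, 5.33e-06 and 2.19e-05. fkb-1 had 322, 418, 405 and 399 RPKM in the glp-1 control, against 267, 264, 268 and 292 RPKM in TU3401, a smaller rise without overlap (log2 fold change 0.49, SE 0.09, adjusted p = 0.000772).

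fkb-2, the small cytosolic protein of the FKBP12 type, had 420.2, 366, 391 and 376 RPKM in the glp-1 control, against 1117, 1073, 1119 and 1195 RPKM in TU3401. fkb-6, a relative of the HSP90 co-chaperones FKBP51 and FKBP52, had 40.9, 30.5, 34.6 and 40.2 RPKM in the glp-1 control, against 225, 231, 230.1 and 242 RPKM in TU3401. Both fell in all libraries, 2.90-fold and 6.36-fold by mean RPKM. The ratio of fkb-1 to fkb-2 was 1.00 ± 0.163 in the glp-1 control, against 0.242 ± 0.00362 in TU3401 (SD, n = 4 each).

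fkb-4 was low, with 0.843, 1.21, 1.30 and 1.98 RPKM in the glp-1 control, against 3.47, 3.85, 4.89 and 4.28 RPKM in TU3401, and fell (log2 fold change -1.15, SE 0.16, adjusted p = 0.000117). fkb-5, which with fkb-4 belongs to the endoplasmic reticulum proteins that aid collagen, had 54.7, 20.5, 25.4 and 25.2 RPKM in the glp-1 control, against 38.3, 28.6, 29.9 and 28.4 RPKM in TU3401. Replicate 1 was the highest library of both groups, and the gene was not called (log2 fold change -0.09, 95% interval -0.71 to 0.54, adjusted p = 0.766). Without replicate 1 of either group fkb-5 was lower in the glp-1 control (log2 fold change -0.29, adjusted p = 0.0300). Under quantile scaling limma called fkb-5 higher (log2 fold change 0.79, adjusted p = 0.0170). fkb-4 and fkb-5 are similar in sequence and may share reads.

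**Figure D4:**
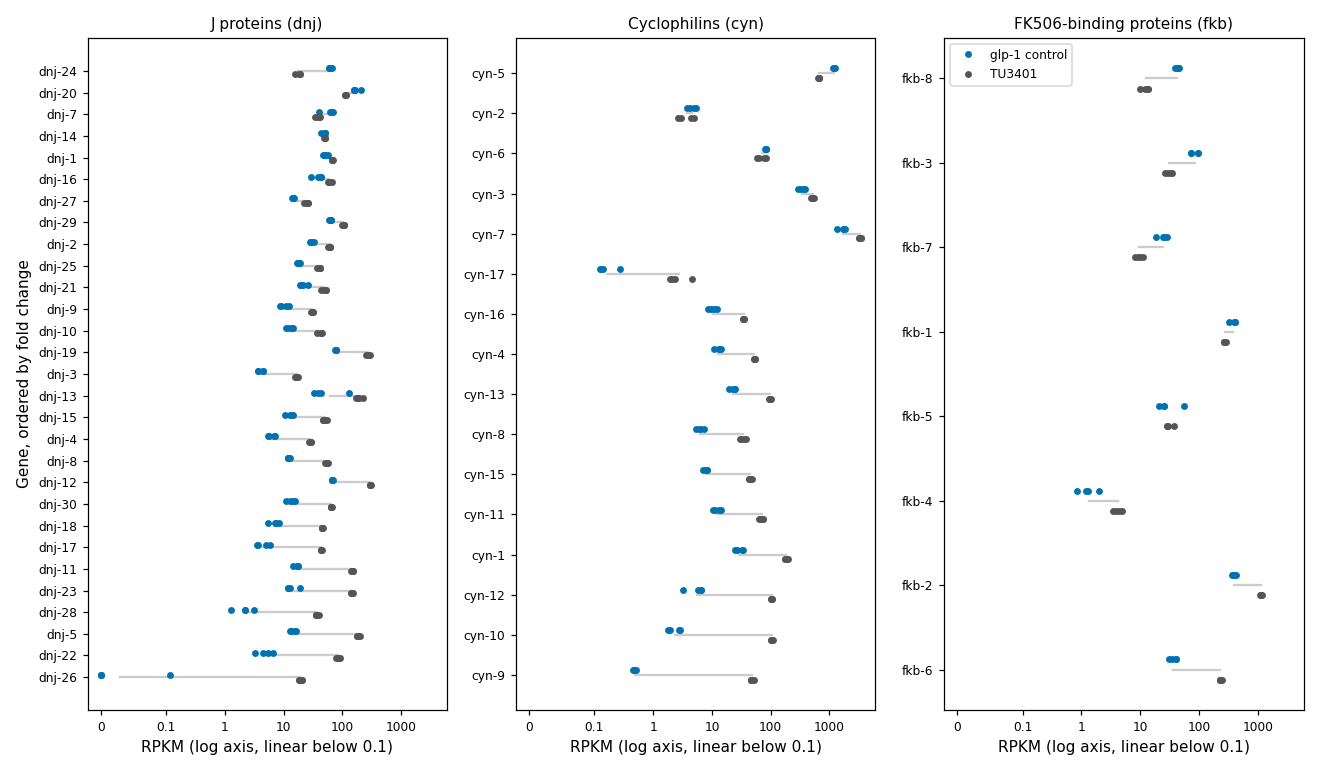
RPKM of each J protein, cyclophilin and FK506-binding protein in the libraries of the glp-1 control (blue, drawn above) and TU3401 (grey, drawn below), ordered by fold change from the top (horizontal axis: log scale, linear below 0.1 RPKM; grey lines join the group means). dnj-24, cyn-5 and fkb-8 lead their families upward, while dnj-26, cyn-9 and cyn-10 reach 19.2, 47.4 and 104 RPKM in TU3401 and 0.0293, 0.485 and 2.35 RPKM in the glp-1 control.

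Of the 9 members assigned above to the secretory pathway, dnj-7, dnj-20, cyn-5 and fkb-3 rose, a count of 4 that is near the 41.5% of all features called higher. Of the other 5, dnj-27, dnj-29 and fkb-4 fell and cyn-6 and fkb-5 were not called. The median log2 fold change of the 9 was 0.25. The 4 members assigned to mitochondria all fell, with a median of -1.74, beside 46.1% of all features called lower. These groupings were made after the values were seen and carry no test. They may leave out other members of the same places, and the counts hold only for the members listed.

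The gene for HSP90, daf-21, which works with many of these proteins on kinases and receptors, fell to 229 RPKM in the glp-1 control, against 1709 RPKM in TU3401 (log2 fold change -2.90, SE 0.11, adjusted p = 9.66e-09). Of 20 co-chaperones and regulators of the heat shock response, 17 were found by name. In the glp-1 control 16 were lower and 1 higher, beside 46.1% and 41.5% of all features. Their median log2 fold change was -1.69. sti-1, which bridges HSP70 and HSP90, fell to 24.7 ± 3.93 RPKM, against 201 ± 10.9 RPKM, and hsf-1, the heat shock transcription factor, to 13.3 ± 1.56 RPKM, against 67.9 ± 4.37 RPKM. hip-1, which steadies HSP70 on its client, fell to 78.8 ± 7.44 RPKM, against 348 ± 13.3 RPKM. The 1 that rose was unc-23, a BAG protein needed for muscle attachment, at 63.7 ± 13.6 RPKM, against 20.9 ± 4.37 RPKM (SD, n = 4 each). daf-21 also was highest in replicate 1 of the glp-1 control, at 279 RPKM, with the others at 201 to 223 RPKM.

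The mml-1 RNAi libraries were compared with the glp-1 control to see whether chaperone genes differ when mml-1 is targeted in germline-less worms. No member was called among 69 tested by limma. An unadjusted p under 0.05 was reached by 2 members, beside 985 of the 12591 features tested. limma-voom on the recovered reads also called 0 members. Over all 12591 features 2 were called, 0.0159%. The count over all features was unstable: it was 60 with the replicate number as a block and 39 in 1 fit over 16 libraries. It ran from 0 to 53 with 1 library left out, with 53 without replicate 4 on mml-1 RNAi and at most 5 without any other. None of these fits called a member. With the block, 5 members had an unadjusted p under 0.05, beside 2354 of all 12591 features. The members' median log2 fold change was 0.02, and 42 of them were above 0 and 27 below. Over all 12591 features the median was -0.005, with 6135 above 0 and 6456 below.

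fkb-7 came nearest. It had 8.62, 15.3, 15.2 and 20.7 RPKM on mml-1 RNAi and 18.3, 25.3, 24.3 and 28.1 RPKM in the control libraries. The ranges overlapped, since replicate 4 on mml-1 RNAi lay within the control range (log2 fold change -0.69, 95% interval -1.25 to -0.13, unadjusted p = 0.021, adjusted p = 0.505). fkb-2 had 451, 458, 453 and 415 RPKM on mml-1 RNAi and 420.2, 366, 391 and 376 RPKM in the control libraries, and pfd-1 had 67.7, 67.8, 66.2 and 68.0 RPKM, against 50.9, 55.3, 59.0 and 68.2 RPKM. Both had higher means on mml-1 RNAi with overlapping ranges (unadjusted p = 0.0384 and 0.0633, adjusted p = 0.59 and 0.69).

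In the mxl-2 RNAi libraries again no member of 69 was called by limma, beside 13 of 12581 features, 0.103%. An unadjusted p under 0.05 was reached by 2 members and by 823 features. limma-voom called 0 members. With the replicate number as a block 24 features and 0 members were called. An unadjusted p under 0.05 was then reached by 13 of 69 members and by 1963 of 12581 features. With 1 library left out the count of features called ran from 1 to 16. It was 1 without replicate 2 or 3 on mxl-2 RNAi or without replicate 2, 3 or 4 of the glp-1 control, and 4 without replicate 1 of the glp-1 control. The level of dnj-3 was 5.21, 6.41, 5.57 and 5.27 RPKM on mxl-2 RNAi and 4.40, 3.73, 3.67 and 4.53 RPKM in the glp-1 control libraries. cyn-2 had 5.62, 5.81, 6.58 and 6.39 RPKM on mxl-2 RNAi, against 5.34, 4.88, 4.31 and 3.82 RPKM. For both genes all 4 mxl-2 RNAi libraries lay above all 4 controls, and neither passed over all features (log2 fold change 0.38, SE 0.11, adjusted p = 0.483 for dnj-3, and log2 fold change 0.35, SE 0.12, adjusted p = 0.571 for cyn-2). They were the 2 members without overlap in this comparison, beside 518 of the 12581 features tested. pfd-3 had 45.1, 51.9, 52.8 and 49.3 RPKM, against 41.2, 42.5, 42.9 and 47.6 RPKM, with overlap (unadjusted p = 0.0663).

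Between mxl-2 RNAi and mml-1 RNAi no member was called by limma or limma-voom and none had an unadjusted p under 0.05 in limma; of all 12540 features 0.00% were called and 111 had such a p. With the replicate block 3 members and 872 features had such a p, and again 0 features were called. The lowest p among the members was that of dnj-3 (0.135), with 3.60, 4.99, 5.35 and 4.97 RPKM on mml-1 RNAi beside the mxl-2 RNAi values above. pfd-4 and dnj-28 came next (unadjusted p = 0.145 and 0.159). Both knockdown comparisons share the control libraries, and no agreement between them is counted.

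For CCT the knockdown estimates were close to 0 and their intervals narrow. Over the 8 subunits the 95% intervals of the log2 fold change stayed within -0.30 to 0.30 on mml-1 RNAi and -0.37 to 0.25 on mxl-2 RNAi, and those of the 6 prefoldin subunits within -0.38 to 0.44 and -0.23 to 0.52. For hsp genes the intervals reached -1.34 to 1.13 on mml-1 RNAi and -1.60 to 0.99 on mxl-2 RNAi, and for J proteins -1.61 to 1.01 and -1.69 to 0.89. All these intervals are from the fit without the replicate block. Without replicate 1 of either group, dnj-13 had a log2 fold change of -0.35 (SE 0.13) on mml-1 RNAi and -0.44 (SE 0.13) on mxl-2 RNAi, with adjusted p of 0.681 and 0.526. With the replicate number as a block and all 4 replicates, dnj-13 had a log2 fold change of -0.30 (SE 0.08, adjusted p = 0.146) on mml-1 RNAi and -0.40 (SE 0.11, adjusted p = 0.181) on mxl-2 RNAi. For hsp-70 the block gave -0.11 (SE 0.22, adjusted p = 0.832) and -0.40 (SE 0.16, adjusted p = 0.315).

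**Figure D5:**
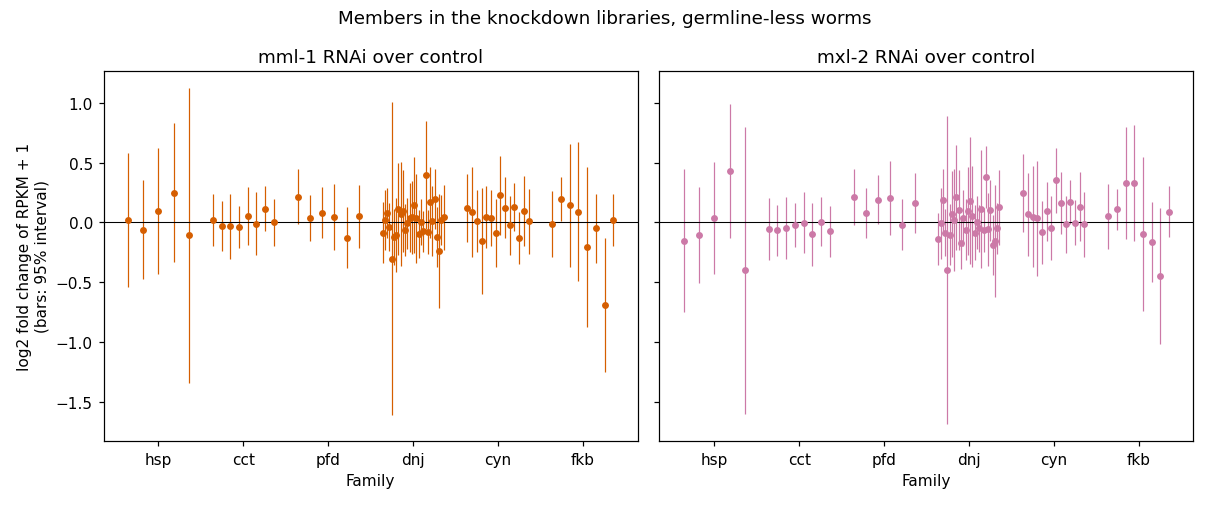
Log2 fold change of RPKM + 1 over the glp-1 control for the 69 members tested, by family, on mml-1 RNAi (left) and mxl-2 RNAi (right), with 4 libraries a group (points: limma estimates; bars: 95% intervals). All points lie between -0.69 and 0.43, no member was called, and the longest bars belong to hsp-70 and dnj-13.

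dnj-26, cyn-9 and cyn-17 averaged under 1 RPKM over the libraries of each knockdown comparison and were not tested there. cyn-9 had 0.391, 0.983, 0.933 and 0.556 RPKM on mml-1 RNAi, 0.273, 0.726, 0.708 and 0.643 RPKM on mxl-2 RNAi and 0.505, 0.462, 0.500 and 0.474 RPKM in the control libraries. cyn-17 had 0.424, 0.226, 0.225 and 0.620 RPKM on mml-1 RNAi, 0.0627, 0.656, 0.244 and 0.547 RPKM on mxl-2 RNAi and 0.139, 0.127, 0.125 and 0.273 RPKM in the control libraries. The ranges of the 3 germline-less groups overlapped for both genes. By the authors' deposited tables, 67 members were under an FDR of 0.05 for the glp-1 control and TU3401, and 0 for mml-1 RNAi and for mxl-2 RNAi (lowest FDR 0.889 and 1).

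Among members at 5 RPKM or more, the spread between libraries was of the size of that of other features. The median coefficient of variation was 10.9% on mml-1 RNAi, 11.1% on mxl-2 RNAi and 11.4% in the glp-1 control, against 5.29% in TU3401, beside 13.9%, 14.9%, 13.7% and 7.74% over all features. cct-1 varied least in the glp-1 control (1.88%) and hsp-70 most (90.6%). dnj-13 varied most on both knockdowns, at 84.7% and 85.0%.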

How the data were processed

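Whole-body RNA of day 1 adults was measured in 16 libraries, 4 in each of 4 groups, grouped by their titles. Per the labels, the authors deposited RPKM values in 3 tables of paired groups; per the file headers these also hold the authors' log2 fold change, p-value and false discovery rate (FDR), used here only where the authors' deposited table is named. TopHat2 2.1.1, bcl2fastq and GRCh38 appear in the submitters' processing notes; GRCh38 is a human build, so the build behind these values, the counting tool and its use of strand are not given in the sources used here. Coordinates are those of Ensembl's WBcel235 annotation. Columns shared between tables were identical (largest difference 0), so all groups stand on 1 scale.

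Whole reads were recovered from the RPKM values with the 21-base piRNA loci as the unit: all 25332 features above 0 came out whole within 0.001 (100%). Each feature's length was searched for over a wide range. A feature with reads in few libraries could therefore come out whole in any case, and the 100% is no check of such features. The main test was limma 3.58.1 in R 4.3.3 on log2(RPKM + 1), for features with a mean of at least 1 RPKM over the 8 libraries compared. It used trend and robust variances, was 2-sided, was adjusted over all features by Benjamini and Hochberg, and called features under 0.05. The test was also run on simulated counts that held no pairing of replicates and no outlying replicate. That run therefore cannot show how the test behaves where these occur. Alternatives were a pseudocount of 0.1, no filter or one at 5 RPKM, median-ratio and quantile scaling, limma-voom on recovered reads, 1 fit over 16 libraries, a replicate block, and leaving out each library; leaving out replicate 1 of every group was added after seeing the data. Same-numbered libraries deviated together in every comparison: the correlation of their deviations from group means was 0.12 to 0.68 in all 16 pairs. In 15 of them it was above that with any other number; the exception was replicate 3 of the glp-1 control and TU3401 (0.120, against up to 0.240 with another number). All being over 0.1, the numbers were taken to pair the samples, from the data and not from the labels. The main fit does not use this pairing, because the labels give the numbers no meaning. Its p-values, errors and intervals therefore ignore the pairing, and the replicate block is the alternative that uses it.

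The members, gene lists and marker lists were chosen with earlier results of these data known. Values per library are given for the 2 most abundant members of each family in either group, for up to 6 called members with the largest rise and fall in each of the dnj, cyn and fkb families, for members not called, for the 3 with the lowest unadjusted p in each knockdown comparison where none was called, and for those under the filter. Members named outside this rule, among them hsp-70, hsp-110 and dnj-13, were chosen after their values were seen.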

Additional observations from a re-analysis of the deposited data

Results flagged for a closer look

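In each group of 4 libraries a library was singled out when its gap to the nearest other, divided by the range of the group, exceeded Dixon's 95% critical value. Chance alone marks about 1 in 20 groups. Of 288 groups of members examined, 25 were marked, 12 of them in replicate 1 of a germline-less group. No cause was tested.

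In replicate 1 on mml-1 RNAi, hsp-1 stood at 515 RPKM (others 265 to 296), dnj-13 at 116 RPKM (27.3 to 31.3), and fkb-1 low at 320.5 RPKM (401 to 405). In replicate 1 on mxl-2 RNAi, hsp-1 stood at 489 RPKM (235.5 to 261), dnj-13 at 109 RPKM (25.2 to 30.3) and dnj-19 at 80.2 RPKM (64.2 to 65.4). In replicate 1 of the glp-1 control, hsp-6 stood at 111 RPKM (62.5 to 68.6), hsp-70 at 23.5 RPKM (4.64 to 6.56), hsp-110 at 70.7 RPKM (46.4 to 48.25), dnj-13 at 131 RPKM (32.8 to 43.0), fkb-5 at 54.7 RPKM (20.5 to 25.4), and dnj-14 low at 42.5 RPKM (50.1 to 51.3).

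Among the other germline-less libraries, cct-2 was high in replicate 4 on mxl-2 RNAi at 37.4 RPKM, pfd-1 low in replicate 3 on mml-1 RNAi at 66.2 RPKM and fkb-2 low in replicate 4 on mml-1 RNAi at 415 RPKM. In the glp-1 control, dnj-19 was low in replicate 3 at 74.2 RPKM, dnj-26 was above 0 only in replicate 2 at 0.117 RPKM, and cyn-17 was high in replicate 4 at 0.273 RPKM.

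In TU3401, replicate 1 was low for dnj-2 at 57.4 RPKM and high for cyn-9 at 51.1 RPKM and fkb-5 at 38.3 RPKM. Replicate 2 was high for dnj-16 at 66.0 RPKM and dnj-28 at 39.4 RPKM, and replicate 4 for pfd-1 at 206 RPKM and fkb-1 at 292 RPKM.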

How the results depend on the processing

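Quantile scaling gave 15 members higher and 56 lower in the glp-1 control; it moves the median of all features from -0.06 to 0.42 on the log2 scale, and relative to that median the members' median was -1.78, against -1.79 without it. Under it dnj-1 (0.30), dnj-14 (0.72), dnj-16 (0.15), dnj-27 (0.17) and fkb-5 (0.79) had log2 fold changes above 0. All of these but dnj-16 were called higher under quantile scaling. cyn-2 (0.58) was called higher only under it. cyn-6 passed the threshold under 7 alternatives, with log2 fold changes of 0.25 to 0.80. fkb-5 was called lower without replicate 1 of the glp-1 control (-0.38). Leaving out 1 library at a time gave 9 to 10 members higher and 59 to 60 lower, and 5 and 52 to 54 at 2-fold. The replicate block changed no call of a member apart from that of cyn-6. In the knockdown comparisons each alternative also called 0 members; the lowest adjusted p was 0.0629 on mml-1 RNAi (fkb-7, replicate block), 0.181 on mxl-2 RNAi and 0.614 between them. The count over all features moved more: on mml-1 RNAi from 2 to 60 (replicate block), 39 (1 fit over 16 libraries), 6 (pseudocount of 0.1), 1 (filter at 5 RPKM) and 0 to 53 (1 library left out), with 3 under quantile or median-ratio scaling and limma-voom; on mxl-2 RNAi from 13 to 24, 25, 2 without a filter, 8 at 5 RPKM and 1 to 16. The causes were not tested. Depth limits dnj-26, cyn-9 and cyn-17, which held few reads without a germline.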
